A study of Mus musculus with 6 samples.

Results

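The classical MHC class I presentation genes described here were H2-K1, H2-D1, B2m, Tap1, Tap2, Tapbp, Nlrc5, Psmb8, Psmb9 and Psmb10. The rule that picks them is a list of symbols and uses no measured value, and they are 10 of the 32285 genes in the count tables. The list itself was chosen with earlier results of these data known. Their levels were followed through 13 immune cell classes and a small set of keratin-positive cells in 6 single-cell RNA libraries, each from 1 mouse. The study asked whether blocking glycosylation makes homologous-recombination-proficient ovarian tumors more responsive to antibodies against PD-L1.

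Per the study's methods, KPCA tumor cells were placed in 1 ovarian bursa of female C57BL/6 mice aged 6 to 8 weeks, and tumors were palpable by day 9. The control mouse received solvent and rat IgG. The 2DG mouse received 2-deoxy-D-glucose, an inhibitor of N-linked glycosylation and of glycolysis, by intraperitoneal injection every 2 days from day 9. The 2FF mouse received 2-fluorofucose, an inhibitor of fucosylation, by gavage every 2 days, and its tumor cells had been exposed to 2FF for 3 days before injection. The anti-PD-L1 mouse received the antibody for 3 weeks from day 9. The mice of the 2DG plus anti-PD-L1 group (here the 2DG combination) and of the 2FF plus anti-PD-L1 group (the 2FF combination) received both agents, and all mice were sacrificed on day 30. All groups carried the same KPCA line. Lymph node is the tissue named in the labels and the design text speaks of young and aged animals, whereas the methods describe tumors. Ccl19, Ccl21a and Madcam1, defining genes of lymph node stroma, each had a UMI in at most 6 of the 7703 to 9222 cells kept per library. Of the other genes on that list, Cxcl13 had a UMI in 0 to 33 cells, Cr2, which B cells also express, in 58 to 154, and Pdpn, which fibroblasts and some macrophages also express, in 646 to 1792, so the list does not settle the tissue. The treatment groups are the same in the labels and the methods, and the libraries were grouped by them. The labels name the 2FF agent as 2F-peracetyl-fucose, whereas the paper names it as 2-fluoro-L-fucose.

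Each library held 8598 to 10412 barcodes and 61859753 to 73885214 UMIs (unique molecular identifiers, each counted as 1 captured RNA molecule). Cells with at least 250 genes and at most 5% mitochondrial UMIs were kept, which left 51633 cells, and 61.18% of these met the marker gate of exactly 1 class. Another 4396 cells met both the classical monocyte and the macrophage gates and were followed as a monocyte-macrophage intermediate class. In all 62 checks on markers outside the gates, the gene was higher in its own class than in the other classes together. For some of them another single class was the highest, such as macrophages for Cx3cr1 of non-classical monocytes and mature DC for Batf3 of type 1 DC. Cldn7 of the keratin-positive cells rested on 1 UMI. The checks pooled the libraries, so they do not show the make-up of a class in each library. Library pairs shared 16 to 34 barcodes. The control library stood apart in its cells, with 2895 gated neutrophils against 363 to 588 elsewhere and 99 CD8 T cells against 962 to 1849. With 1 mouse per treatment, no difference between treatments could be tested, and the intervals below cover counting error only.

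MHC class I molecules display short peptides from proteins made inside a cell to CD8 T cells. The proteasome cuts proteins into peptides, the TAP transporter moves them into the endoplasmic reticulum, and tapasin holds the transporter beside a newly folded heavy chain until a peptide binds. Interferon gamma raises the transcription of most of these genes in tumor and immune cells, and loss of the pathway in tumor cells is a known route of escape from CD8 T cells.

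In the GENCODE M21 annotation of GRCm38 (mm10), 7 of the 10 genes lay within 1.352 Mb of chromosome 17, from Tapbp at its start (33915899) to H2-D1 at its end (35267499). Psmb9, Tap1, Psmb8 and Tap2 were packed into 34335 bases of that interval. B2m was on chromosome 2 (122147686 to 122153083), and Nlrc5 (94434356 to 94527272) and Psmb10 (105935735 to 105938444) were on chromosome 8. All are protein-coding genes. Promoter windows of RefSeq (GRCm38.p6) were matched for 8 members. The stretches before the start sites of H2-K1, H2-D1 and B2m, and the whole stretch between the opposed start sites of Psmb9 and Tap1, are shown because the members they belong to behaved differently across the libraries. These start sites are those of the promoter windows, and GENCODE M21 differs. By GENCODE the H2-D1 stretch lies inside the gene, the H2-K1 stretch runs into its gene, and Psmb9 and Tap1 overlap. In a second H2-K1 window the last CCAAT is at position 9, after the start site. Capitals mark matches, on either strand, to CCAAT (bound by NF-Y), TGACGC, AANNGAAA (an interferon regulatory factor core) and GGGGANTCC (an NF-kappa-B core).
H2-K1, chr17:34000335-34000468, minus strand: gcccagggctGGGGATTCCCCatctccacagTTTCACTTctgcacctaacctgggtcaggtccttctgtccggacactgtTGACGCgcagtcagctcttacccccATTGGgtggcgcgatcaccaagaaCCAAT
H2-D1, chr17:35262913-35263045, plus strand: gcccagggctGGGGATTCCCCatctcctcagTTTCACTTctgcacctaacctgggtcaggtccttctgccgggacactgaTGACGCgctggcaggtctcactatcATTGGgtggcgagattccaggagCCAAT
B2m, chr2:122147540-122147638, plus strand: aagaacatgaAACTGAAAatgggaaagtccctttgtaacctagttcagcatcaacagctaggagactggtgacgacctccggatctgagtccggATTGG
Tap1 and Psmb9, chr17:34187331-34187555, plus strand, read toward Tap1: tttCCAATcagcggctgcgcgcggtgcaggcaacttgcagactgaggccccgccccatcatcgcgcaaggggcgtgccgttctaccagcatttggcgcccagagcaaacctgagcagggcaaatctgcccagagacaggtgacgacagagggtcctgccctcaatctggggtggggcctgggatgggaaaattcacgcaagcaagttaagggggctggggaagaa

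The heavy-chain genes H2-K1 and H2-D1 shared the order of their motifs, and 72 of 76 bases (94.7%) from the first motif to the end of the third were identical. GGGGANTCC was held by both, against 1.19% of 32851 promoter windows of 300 bases, and its matches on the 2 strands overlap. TGACGC was also held by both (7.403% of all windows), AANNGAAA by H2-K1, H2-D1 and B2m (23.92%), and CCAAT by 6 of the 8 (37.41%). The gamma-activated site TTCNNNGAA was found in the Psmb8 window alone among the members (8.298% of all windows), and Psmb10 held no match. The Tap1 and Psmb9 windows share 275 bases, so their matches are not separate observations. A match is a description of letters, and no binding was measured.

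Levels are given as CPM, the UMIs of a gene per 1000000 UMIs summed over a gated class in a library. The members were detected in every one of the 13 classes, and the class at the top differed between them. B cells were the lowest class for 6 members, H2-K1, H2-D1, B2m, Tapbp, Psmb8 and Psmb10. Dendritic cells (DC) led for B2m, Tap1, Tap2, Tapbp, Psmb8 and Psmb9, regulatory T cells (Treg) for H2-K1, non-classical monocytes for H2-D1, CD8 T cells for Nlrc5 and the monocyte-macrophage intermediate class for Psmb10. The narrowest span over classes was that of H2-D1 (2.48-fold between the highest and lowest class medians) and the widest that of Psmb9 (7.62-fold). Of the 120 pairs of neighbouring classes in these orders, 32 kept their order in all 6 libraries.

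**Figure D1:**
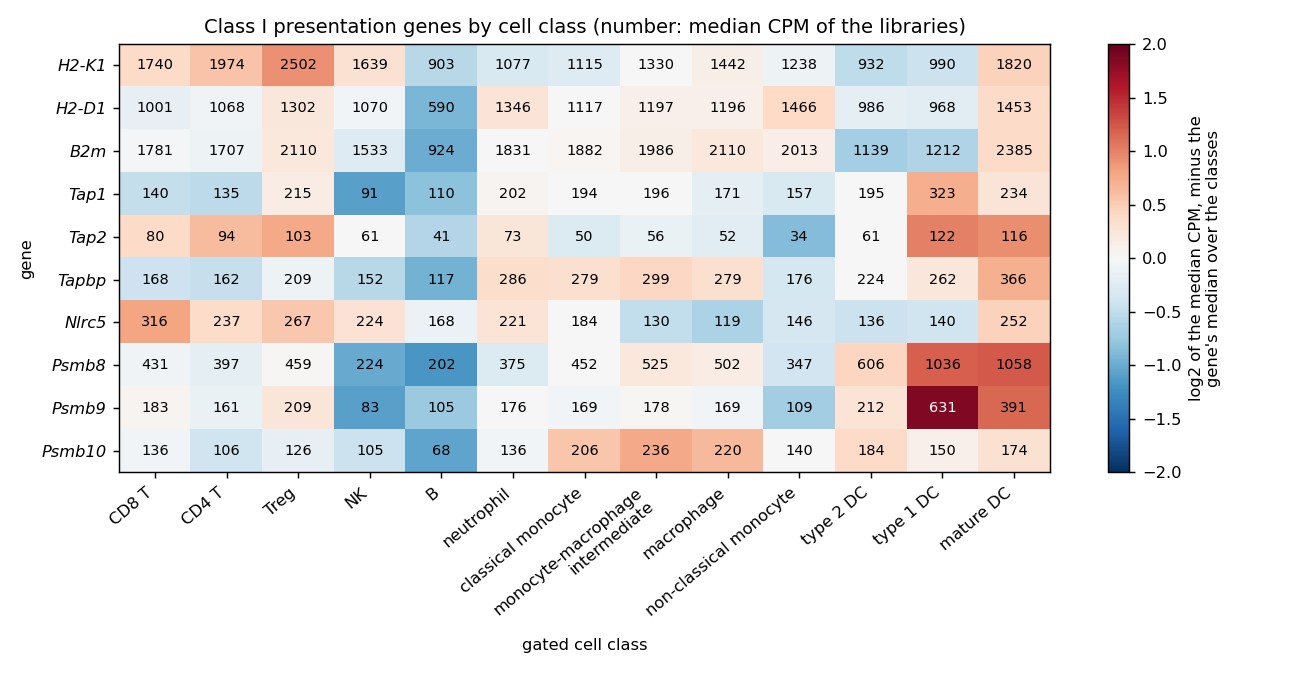
Median CPM of the 6 libraries for each member (rows) in each gated class (columns). Color is the log2 of that median minus the gene's median over the classes, red for higher and blue for lower. Psmb9 in type 1 DC (631) and Psmb8 in mature DC (1058) and type 1 DC (1036) stand above other classes, and the B cell column holds the lowest value for 6 genes.

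H2-K1, a heavy chain that holds the peptide, had a median of 2502 CPM in Treg (range 1737 to 2812 over libraries), 1974 in CD4 T cells and 903 in B cells (654 to 1055). The Treg level was above that of CD4 T cells in 6 of 6 libraries. H2-D1, the other heavy chain of this strain, was at 1466 CPM in non-classical monocytes and 1453 in mature DC, a pair whose order was split 3 to 3 over the libraries. B2m encodes the light chain shared by the heavy chains, and its medians of 2385 CPM in mature DC and 2110 in macrophages were ordered that way in 4 of 6 libraries.

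Tap1 and Tap2 encode the paired subunits of the peptide transporter. Both had their highest median in type 1 DC, the class known for presenting captured antigen to CD8 T cells, at 323 CPM for Tap1 (range 261 to 394) and 122 CPM for Tap2 (87.1 to 160). Tap1 in type 1 DC was above mature DC in 6 of 6 libraries, and Tap2 in 3 of 6. Tapbp, which encodes tapasin, was highest in mature DC (366 CPM, range 299 to 406). Nlrc5 encodes the transactivator of class I genes. Its median was 316 CPM in CD8 T cells (269 to 344), above Treg in 6 of 6 libraries, and 119 CPM in macrophages (66.9 to 134), the lowest class.

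Psmb8, Psmb9 and Psmb10 encode the catalytic subunits that replace Psmb5, Psmb6 and Psmb7 in the immunoproteasome. Psmb9 had a median of 631 CPM in type 1 DC (449 to 845), above mature DC (391) in 6 of 6 libraries, and 82.8 CPM in NK cells. Psmb8 had 1058 CPM in mature DC and 1036 in type 1 DC, in an order that was split 3 to 3. Psmb10 was the exception to this DC pattern, with medians of 236 CPM in the intermediate class, 220 in macrophages and 150 in type 1 DC.

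3 contrasts between classes of the same library were tested with an exact two-sided sign-flip permutation test over the 6 libraries, whose smallest possible p is 0.03125. After Benjamini-Hochberg adjustment over the 30 tests, every member that moved the same way in 6 of 6 libraries had an adjusted p of 0.0469 by this exact test. The libraries are mice under different treatments, so the test measures whether a class difference held across them. Mature DC were above type 2 DC for 9 of the 10 members. The mean log2 ratio of CPM + 5 was 0.97 for H2-K1, 0.94 for B2m, 0.97 for Tap2 and 0.90 for Nlrc5, and 0.34 for Tap1, the smallest of the 9. Psmb10 had a mean log2 ratio of 0.02 and was higher in 3 of 6 libraries (exact permutation, adjusted p = 0.873).

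Type 1 DC were above macrophages for 4 members and below them for 2. Those above were the proteasome genes Psmb9 (mean log2 ratio 1.84) and Psmb8 (1.08) and the transporter genes Tap2 (1.19) and Tap1 (1.01). H2-K1 (-0.49) and B2m (-0.81) were lower. H2-D1 (-0.37) and Psmb10 (-0.42) were each lower in 5 of 6 libraries and did not pass (exact permutation, adjusted p = 0.0852). Neutrophils were above macrophages for Nlrc5, by 0.88, and below them for H2-K1 (-0.54), B2m (-0.26), Psmb8 (-0.51) and Psmb10 (-0.90). The neutrophil values are wide, from -2.31 to -0.41 for Psmb10, with the control library at the low end.

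Whether the proteasome pairs shifted was read from the share of the immune subunit among the UMIs of each pair, which is not a molar share. Psmb8 made up 91.4% of Psmb8 plus Psmb5 in mature DC (median of 6 libraries, range 88.5% to 94.3%) and 72.9% in NK cells. Psmb9 made up 77.8% of its pair with Psmb6 in mature DC and 76.9% in type 1 DC, but 52.6% in macrophages and 50.6% in NK cells. The Psmb10 share of its pair with Psmb7 was 71.8% in classical monocytes and 49.8% in B cells. In type 1 DC, where Psmb9 led, the Psmb10 share was only 51.8%, so the subunits of the immunoproteasome did not follow 1 order over the classes. Control neutrophils had the lowest share of any class and library followed for Psmb10, 22.7% (exact Clopper-Pearson interval 20.4% to 25.2%, 1228 UMIs), beside 73.3% in 2FF neutrophils (69.6% to 76.8%). The gated neutrophils differed in make-up between these libraries, and its part in the shares was not tested.

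**Figure D2:**
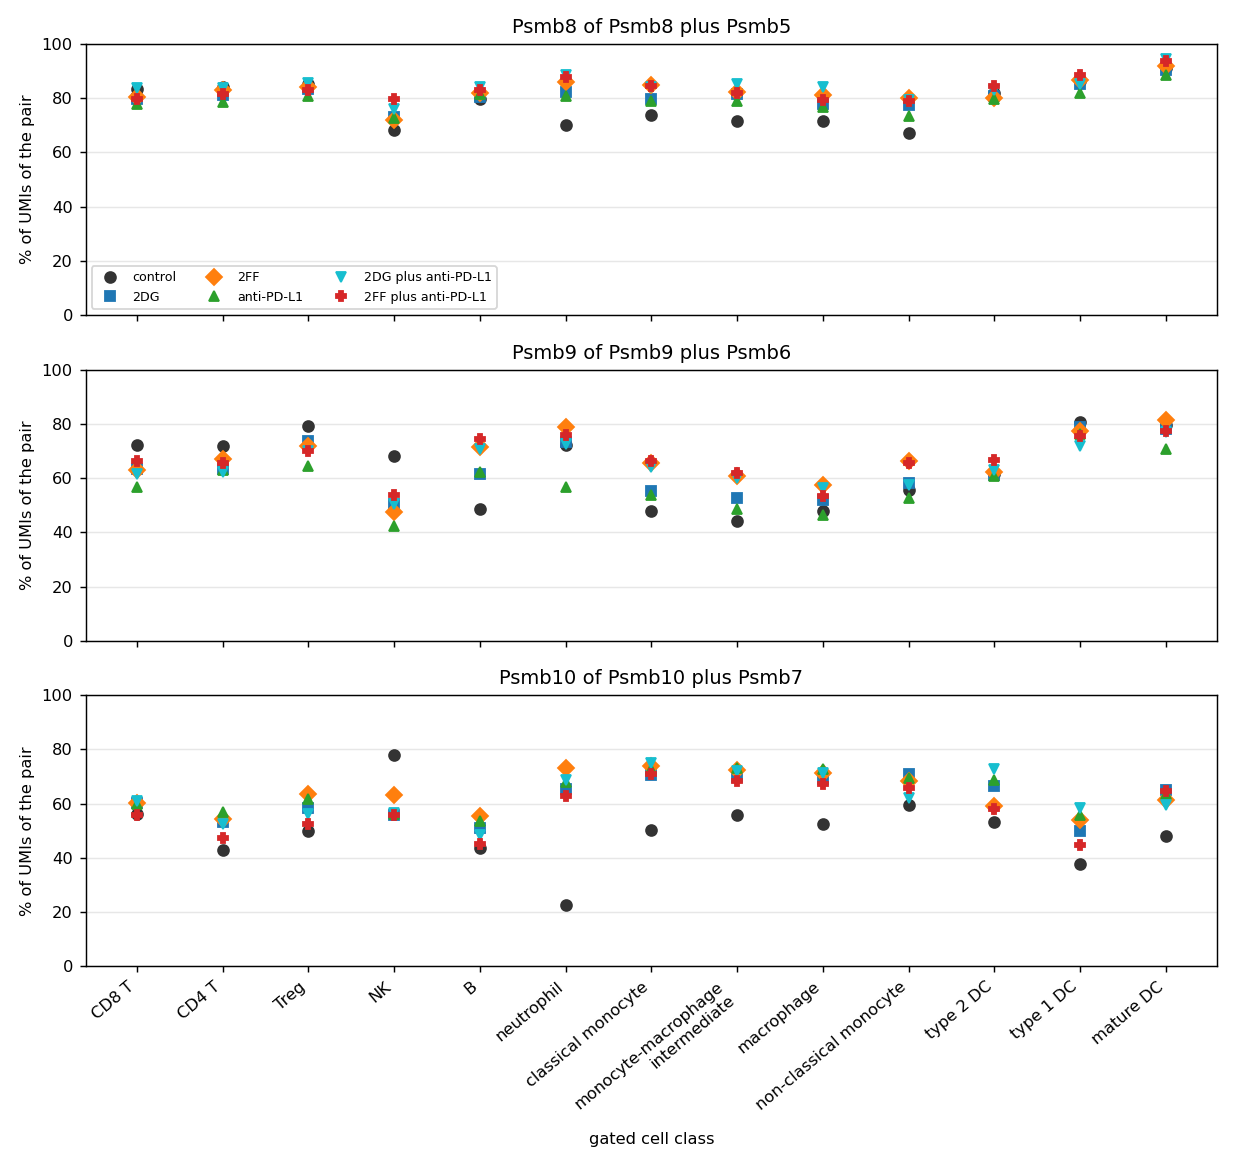
Share of UMIs of each proteasome pair taken by the immune subunit, in percent, for each gated class (horizontal axis), with 1 point per library. The control neutrophils sit at 22.7% for Psmb10 while the other libraries lie between 62.9% and 73.3%.

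Single cells showed the same genes at different ease of detection. With each cell thinned to 1000 UMIs, H2-K1 had a UMI in a median of 89.96% of Treg and 55.8% of B cells, B2m in 86.9% of mature DC and 59.6% of B cells, and Psmb9 in 40.1% of type 1 DC and 7.22% of NK cells. Tap2 was the least often seen, from 3.16% of non-classical monocytes to 11.9% of mature DC. Of the marker RNA of other classes, the genes named next were low in the gated cells, whereas Cd74 in neutrophils, given further on, was not. S100a8 and S100a9 in CD8 T cells were at 0.0185% to 0.145% of their neutrophil level. The macrophage genes C1qa, C1qb and C1qc in neutrophils were at 0.648% to 2.40% of their macrophage level. Cells that met more than 1 gate, 23.15% of those kept (18.16% to 27.53% per library), were outside these classes. The values are thus not a measure of leaked RNA in all droplets. The spread between cells was read without thinning, in cells with 1000 or more UMIs. Within macrophages, the summed UMIs of H2-K1, H2-D1 and B2m per 10000 differed between the 90th and 10th percentile of cells by 2.51-fold to 3.27-fold in a library. In control neutrophils that ratio was 6.13-fold, against 3.72-fold to 4.24-fold in the neutrophils of the other libraries. The median sum was 19.3 per 10000 in control neutrophils and 33.4 to 50.6 in the others. Median depth was 2711 to 3808 UMIs per cell in neutrophils and 8541 to 12340 in macrophages. Few counts per cell widen such a ratio, and the part of counting error in it was not tested.

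Keratin-positive cells, gated on at least 2 of Krt7, Krt8, Krt18 and Krt19 and no Ptprc, numbered only 69 and came unevenly from the libraries: 2 from control, 18 from 2DG, 21 from 2FF, 3 from anti-PD-L1, 8 from the 2DG combination and 17 from the 2FF combination. All 10 members were present in them. Pooled over libraries, H2-D1 was at 2463 CPM (exact Poisson 95% interval 2379 to 2549), H2-K1 at 2146 (2068 to 2227) and B2m at 1522 (1457 to 1590). The 2FF combination gave 668146 of the 1319042 pooled UMIs, and 1 cell held 17.33% of the H2-D1 UMIs. The pooled order of H2-D1 and H2-K1 did not hold in each library. H2-D1 was the lower in 2FF (2576 against 2824 CPM), anti-PD-L1 (1400 against 2465) and the 2DG combination (1753 against 2490). It was the higher in 2DG (2222 against 1976) and the 2FF combination (2784 against 2043). H2-K1 had a UMI in 57 of the 69 cells, and in 37 of the 38 cells with 10000 or more UMIs. The control library gave 1852 UMIs in its 2 cells, with none of H2-K1, for which the upper exact Poisson bound is 1992 CPM. This bound is below the intervals of 2FF, anti-PD-L1 and the 2DG combination and within those of 2DG and the 2FF combination, and it rests on 2 cells of 1 mouse.

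The processing genes were also present in the pooled keratin-positive cells. Psmb8 was at 785 CPM (738 to 834), Psmb9 at 325, Tapbp at 263, Tap1 at 253, Psmb10 at 202, Nlrc5 at 128 and Tap2 at 102. Per library, H2-K1 was at 1976 CPM in 2DG, 2824 in 2FF, 2465 in anti-PD-L1, 2490 in the 2DG combination and 2043 in the 2FF combination. Psmb8 ran from 355 CPM in anti-PD-L1 (211 to 561, 3 cells) to 1305 in 2FF (1107 to 1529, 21 cells). The epithelial genes Epcam (226 CPM) and Wfdc2 (148 CPM) were present, but so were Dcn (510 CPM) and Col3a1 (187 CPM) of the fibroblast list, while all 5 endothelial markers had no UMI and the mesothelial genes ran from 1.52 CPM (Lrrn4) to 77.3 CPM (Wt1). The part of other keratin-bearing cells in these levels was not tested, and with 20 or more cells in 1 library alone no contrast with immune cells was made.

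Macrophages had 528 to 956 cells in every library and allowed the treatments to be set side by side. H2-K1 was at 901 CPM in control (878 to 925), 1379 in 2DG, 1759 in 2FF (1732 to 1787), 1454 in anti-PD-L1, 1741 in the 2DG combination and 1429 in the 2FF combination. The control library was lowest and its interval overlapped no other. Psmb10 was at 116 CPM in control (108 to 124), 219 in 2DG, 305 in 2FF (294 to 317), 221 in anti-PD-L1, 243 in the 2DG combination and 220 in the 2FF combination, in which control was again lowest and 2FF highest. Nlrc5 was at 66.9 CPM in control (60.8 to 73.5), and at 117, 122, 134, 121 and 104 CPM in the other libraries in the same order. Tap2 and B2m did not follow this order. Tap2 was at 40.1 CPM in control, 40.9 in 2DG, 67.1 in 2FF, 35.9 in anti-PD-L1, 63.8 in the 2DG combination and 63.2 in the 2FF combination. B2m was at 1805, 1814, 2407, 1582, 2440 and 2491 CPM, so that control, 2DG and anti-PD-L1 lay below the other three for both genes.

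**Figure D3:**
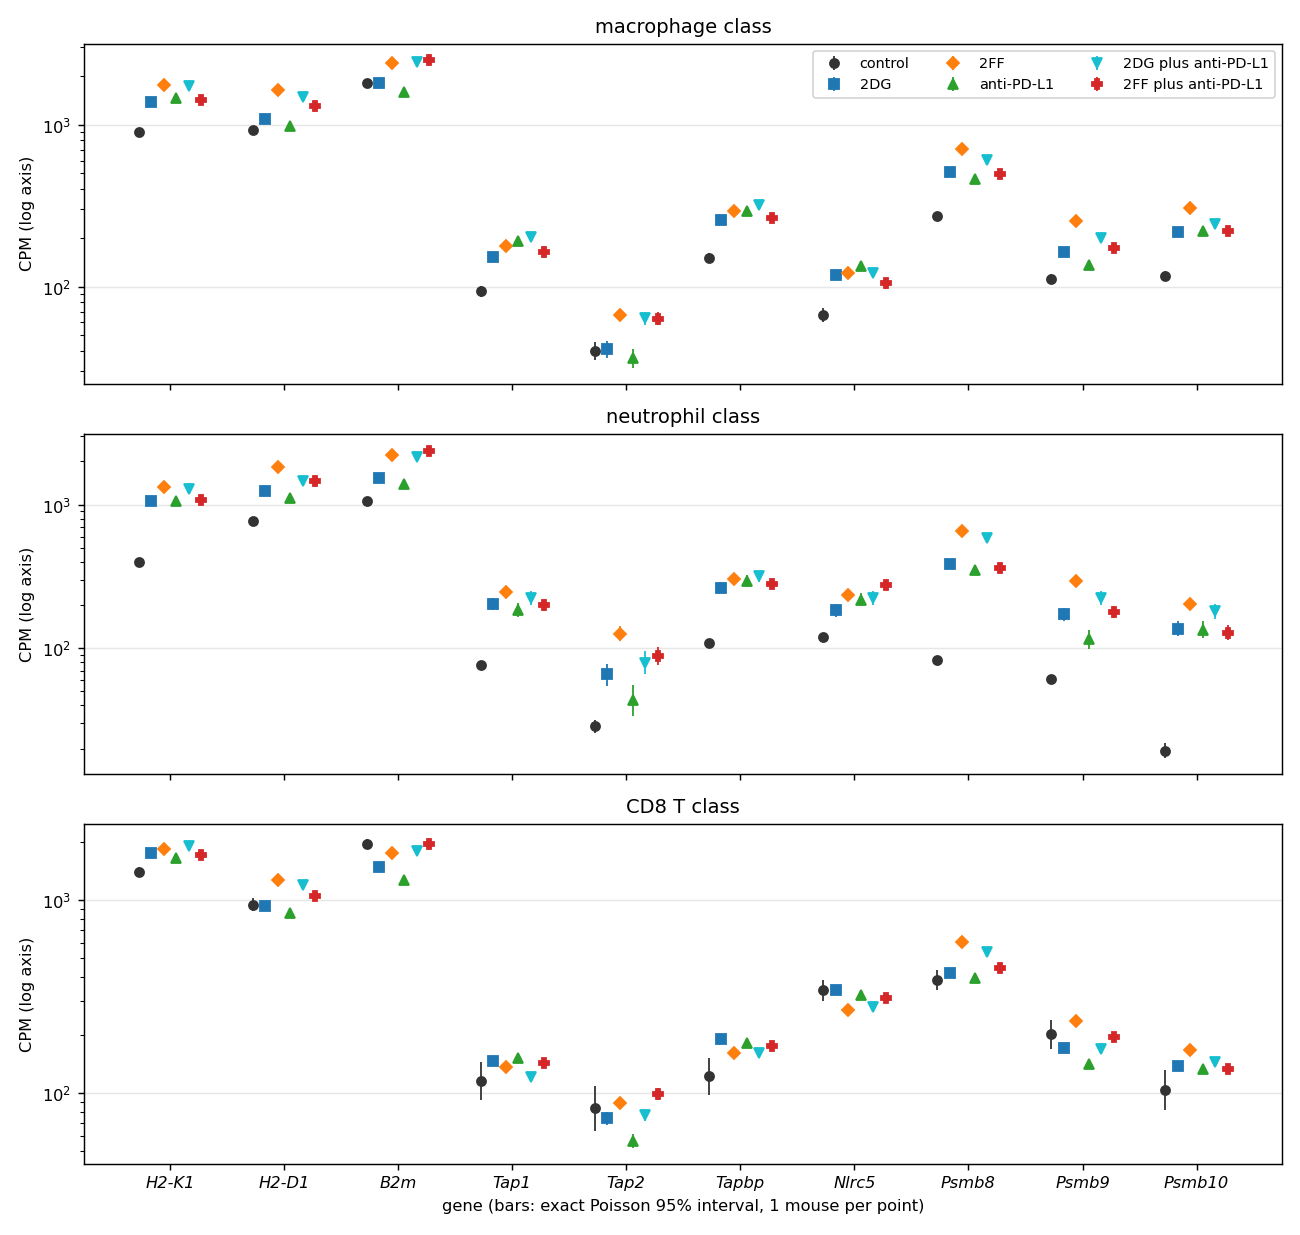
CPM on a log axis for each member (horizontal axis) in gated classes, 1 panel per class and 1 point per library, each point being 1 mouse with an exact Poisson 95% interval. In neutrophils the control point is the lowest for all 10 genes and in macrophages for 8, whereas in CD8 T cells it is the lowest for 5.

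The control macrophages were the lowest of the 6 libraries for 8 of the 10 members, all but B2m and Tap2, where 22.1% of all genes tested had control lowest. In classical monocytes this held for 9 members (43.5% of all genes), in neutrophils for 10 (51.9% of all genes) and in CD8 T cells for 5 (35.9% of all genes). A ratio between 2 libraries was called when its log2, with 5 CPM added, was 0.5 or more in size. In macrophages, 2DG over control called 7 members higher (14.4% of all genes were called in either direction), 2FF over control 9 (20.1%) and anti-PD-L1 over control 6 (16.2%), and no member was called lower. These comparisons share the control library. The member medians were 0.64, 0.92 and 0.72, and the medians over all genes tested were -0.04, -0.06 and -0.01.

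In macrophages, 2FF over control gave log2 ratios of 1.36 for Psmb8 and for Psmb10, 1.15 for Psmb9, 0.96 for H2-K1, 0.95 for Tapbp, 0.90 for Tap1 and 0.80 for H2-D1. B2m, at 0.41, was the only member under the size called. Tap1 had the largest ratio with anti-PD-L1 over control (0.995), beside 0.95 for Nlrc5, 0.93 for Tapbp and 0.90 for Psmb10, while H2-D1 was at 0.07 and B2m at -0.19. With 2DG, Psmb10 (0.89) and Psmb8 (0.88) led, and B2m (0.01) and Tap2 (0.03) lay near 0.

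Genes known to be raised by interferons were higher in the same macrophages. Of the 15 genes on the interferon response list, 13 were called higher with 2DG, 13 with 2FF and 13 with anti-PD-L1 over control, with medians of 1.23, 1.44 and 1.06. Cxcl9, a chemokine that draws T cells, was at 392 CPM in control and at 1112, 1106 and 1220 CPM in the 2DG, 2FF and anti-PD-L1 libraries. The loading and trimming list, with the chaperones Calr, Canx and Pdia3, had 1 of 8 genes called higher in each of these 3 comparisons and medians of -0.12, -0.04 and 0.00. The regulator list had 3, 3 and 4 of 14 called higher and 1 lower each time. The 14 genes of the constitutive proteasome list, Psma1 to Psma7 and Psmb1 to Psmb7, had 0, 8 and 0 called higher. Of these genes only Psmb5, Psmb6 and Psmb7 are replaced in the immunoproteasome. The activators and assembly factors had 2, 3 and 3 of 6 called higher. The dissociation and stress list had 5, 7 and 7 of 13 genes called lower in the same comparisons and 0, 1 and 0 higher, with a summed level of 10078 CPM in control macrophages and 7378 to 7857 in those 3 libraries, and its part in the member ratios was not tested.

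Classical monocytes, from which tumor macrophages arise, had the same library at the bottom. H2-K1 was at 590 CPM in control, 1027 in 2DG, 1315 in 2FF, 1074 in anti-PD-L1, 1200 in the 2DG combination and 1157 in the 2FF combination. Nlrc5 was at 57.7 CPM in control and 166 to 191 CPM elsewhere, and Psmb10 at 85.2 CPM in control and 194 to 286 CPM elsewhere. B2m again stood apart, at 1634 CPM in control, 1616 in 2DG and 1572 in anti-PD-L1, below 2129 in 2FF and 2236 and 2653 in the combinations. The median log2 ratios of the members over control were 0.84 with 2DG, 1.17 with 2FF and 0.81 with anti-PD-L1, beside 0.21, 0.18 and 0.19 for all genes tested.

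Dendritic cell classes differed from each other. Control was lowest for 8 members in type 2 DC (25.1% of all genes), for 5 in mature DC (21.7% of all genes) and for 2 in type 1 DC (20.4% of all genes). In type 2 DC, with 50 to 86 cells, H2-K1 was at 735 CPM in control and 890 to 992 CPM elsewhere, and Psmb8 at 389 CPM in control and 569 to 682 CPM elsewhere. In type 1 DC, with 43 to 128 cells per library, H2-K1 was at 887 CPM in control, 1053 in 2DG, 1209 in 2FF, 1136 in anti-PD-L1, 927 in the 2DG combination and 868 in the 2FF combination, so that control was not the lowest. Psmb9 in this class was at 679 CPM in control, 845 in 2FF and 449 in the 2DG combination, the lowest. In mature DC, with 62 to 134 cells, control was lowest for H2-K1 (1379 CPM, against 1669 to 2095 elsewhere) and for Psmb8 (751 CPM, against 898 to 1359), but not for B2m, which was at 2411 CPM in control and 1743 in anti-PD-L1.

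When anti-PD-L1 was the reference, fewer members were called in macrophages. The 2DG combination over anti-PD-L1 alone called 4 members higher (12.1% of all genes), which were Tap2 (0.75), B2m (0.62), H2-D1 (0.60) and Psmb9 (0.54). The 2FF combination over anti-PD-L1 alone called 2 higher (7.26% of all genes), again Tap2 (0.74) and B2m (0.65). The comparisons share the anti-PD-L1 library, in which Tap2 and B2m were at their lowest. H2-K1 was at 0.26 and -0.02, Nlrc5 at -0.14 and -0.34 and Tap1 at 0.08 and -0.21 in the combinations with 2DG and 2FF. Of the 15 interferon response genes, 7 and 4 were called higher, and of the 14 genes on the constitutive proteasome list 1 and 0.

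**Figure D4:**
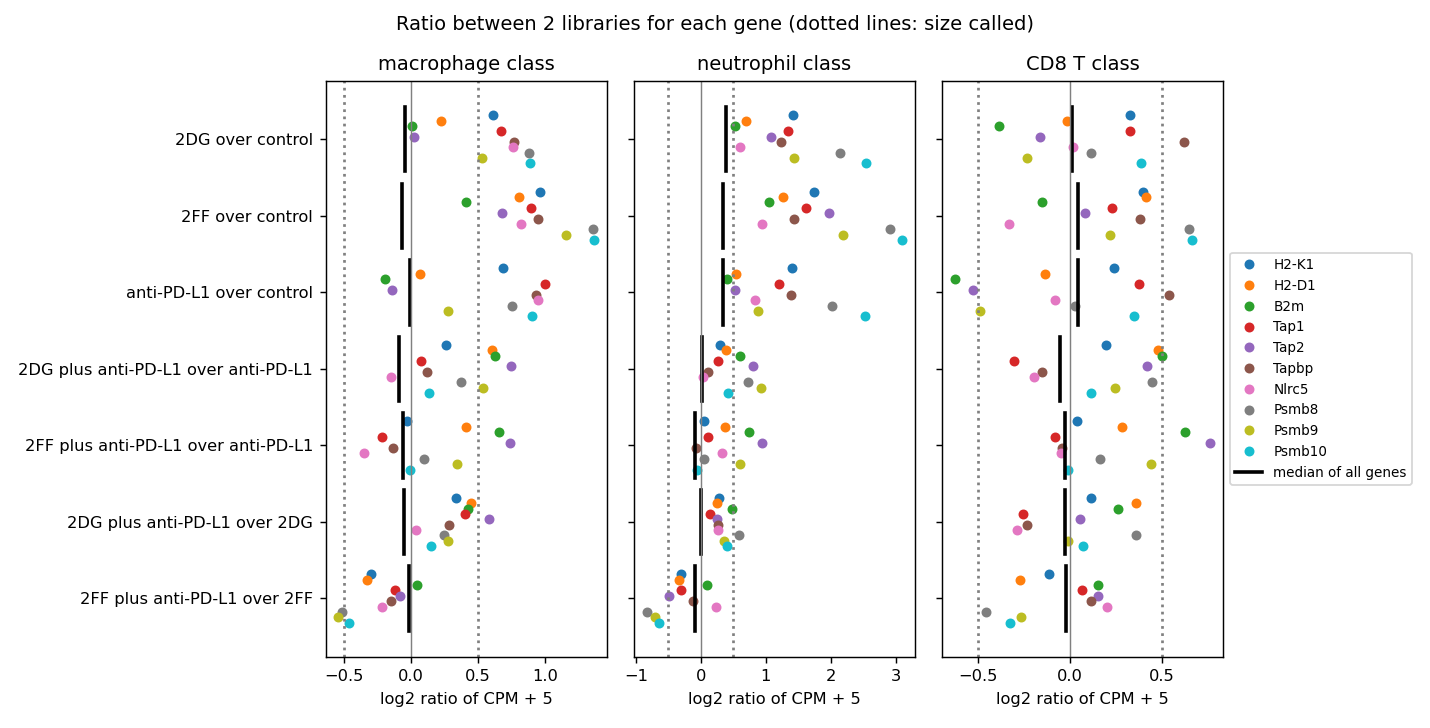
Log2 ratio of CPM + 5 between 2 libraries for each member, 1 panel per class, with dotted lines at the size called (0.5 on either side of 0). Psmb8 and Psmb10 in neutrophils reach 2.91 and 3.1 with 2FF over control, and the CD8 T cell ratios stay between -0.63 and 0.77.

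Neutrophils gave the largest ratios, on a background that moved with them. H2-K1 was at 396 CPM in control, 1068 in 2DG, 1335 in 2FF, 1053 in anti-PD-L1, 1293 in the 2DG combination and 1086 in the 2FF combination. Psmb8 was at 82.8 CPM in control and 351 to 654 CPM elsewhere, and Psmb10 at 19.3 CPM in control and 129 to 204 CPM elsewhere. Control lay below every other library for each of the 10 members. All 10 members were called higher with 2DG over control (57.1% of all genes called in either direction), 10 with 2FF over control (55.7%) and 9 with anti-PD-L1 over control (55.4%), B2m being the tenth at 0.40. The member medians were 1.29, 1.68 and 1.04, beside 0.39, 0.34 and 0.35 for all genes tested. Centred on those medians, the members called were 7, 10 and 6 and their medians 0.90, 1.34 and 0.69. Of all genes, 49.5%, 50.2% and 50.7% were called in either direction after centring, so 7 and 6 of 10 are not far above that share.

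The gated neutrophils were not of the same make-up in all libraries. Cells with 100 or more UMIs of S100a8 and S100a9 per 10000, genes that mature neutrophils express at high levels, were 73.58% of the control class and 33.61% to 44.26% of the others. Cd74, a gene of MHC class II cells, was at 288 CPM in the control class and 2985 to 4014 CPM in the others. In the cells of the class below that S100 limit Cd74 was at 964 CPM in control and 4113 to 5569 CPM elsewhere. Among S100a8/S100a9-high cells alone Cd74 was at 80.8 CPM in control and 136 to 320 CPM elsewhere. With 2DG, 2FF and anti-PD-L1 over control, 7, 10 and 8 members were called higher there, with medians of 0.92, 1.63 and 0.97. Of all genes tested in these cells, 52.1%, 47.2% and 44.8% were called in either direction, with medians of 0.23, 0.10 and 0.05. In those cells H2-K1 was at 350 CPM in control and 861 to 1023 in the other libraries, and Psmb10 at 11.04 CPM in control and 30.2 to 102 elsewhere. The interferon list in the whole neutrophil class had 11, 14 and 12 of 15 genes called higher, and the constitutive proteasome list 13, 13 and 12 of 14. The share of ribosomal protein UMIs was 2.37% in control neutrophils and 4.91% to 5.77% in the others, and its part in the ratios was not tested.

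With anti-PD-L1 as the reference, neutrophils of the 2DG combination had 4 members called higher (19.3% of all genes) and those of the 2FF combination 3 (21.1%). Psmb9 (0.92 and 0.61), Tap2 (0.80 and 0.95) and B2m (0.60 and 0.75) were called in both, and Psmb8 (0.73) in the 2DG combination. Both comparisons share the anti-PD-L1 library. The anti-PD-L1 library had 66 UMIs of Tap2 in this class, and the interval of the Tap2 ratio, without the added 5 CPM, was 0.43 to 1.33 for the 2DG and 0.62 to 1.45 for the 2FF combination.

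CD8 T cells, which recognize class I complexes and also carry them, varied less. H2-K1 was at 1407 CPM in control, 1768 in 2DG, 1857 in 2FF, 1665 in anti-PD-L1, 1912 in the 2DG combination and 1713 in the 2FF combination. B2m was at 1963, 1498, 1763, 1268, 1798 and 1961 CPM, so that control and the 2FF combination were at the top and anti-PD-L1 at the bottom. The control class had only 99 cells. With 2DG over control 1 member was called higher, Tapbp at 0.62 (19.6% of all genes called). With 2FF over control 2 were called higher, Psmb8 (0.65) and Psmb10 (0.66), beside 26.0% of all genes. With anti-PD-L1 over control Tapbp (0.54) was called higher and B2m (-0.63) and Tap2 (-0.53) lower, beside 23.6% of all genes. For 10 genes these counts are near or below what the backgrounds give.

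In the combinations, CD8 T cells had B2m called higher for the 2DG combination over anti-PD-L1 alone (0.50, at the edge of the size called, beside 7.14% of all genes), and B2m (0.63) and Tap2 (0.77) for the 2FF combination over anti-PD-L1 alone (4.47% of all genes). Tap2 was at 56.1 CPM in anti-PD-L1, 76.8 in the 2DG combination and 99.1 in the 2FF combination. Both comparisons share the anti-PD-L1 library, in which B2m and Tap2 of CD8 T cells were at their lowest. B2m was highest in control (1963 CPM), so neither combination exceeded control for it. The interferon list had 4, 5 and 4 of 15 genes called higher and 0, 2 and 2 lower in CD8 T cells with 2DG, 2FF and anti-PD-L1 over control, with medians of 0.01, -0.02 and -0.08, beside 1.06 to 1.44 in macrophages. Nlrc5 in CD8 T cells was at 341 CPM in control and 269 in 2FF, a log2 ratio of -0.33, whereas in macrophages that ratio was 0.82.

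The order of libraries was then followed through all 13 classes for each member. H2-D1 and Psmb9 were highest in the 2FF library in every class, as were 27 of the 5901 genes that could be followed in all classes (0.458%). Psmb8 was highest in 2FF in 12 classes, H2-K1 and Psmb10 in 10, Tap2 in 7, Tap1 in 2, Tapbp in 1, and B2m and Nlrc5 in none. In CD8 T cells 4 members were highest in 2FF (17.3% of all genes) and in macrophages 6 (14.2%). H2-D1 was at 1629 CPM in 2FF macrophages and 931 to 1488 in the others, at 1269 in 2FF CD8 T cells and 863 to 1207 in the others, and at 885 in 2FF B cells and 499 to 619 in the others. Psmb9 was at 255, 235 and 197 CPM in the 2FF macrophages, CD8 T and B cells, against 112 to 200, 142 to 202 and 41.9 to 130 CPM in the other libraries. Classes of 1 library come from 1 mouse and 1 capture and are not independent of each other.

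**Figure D5:**
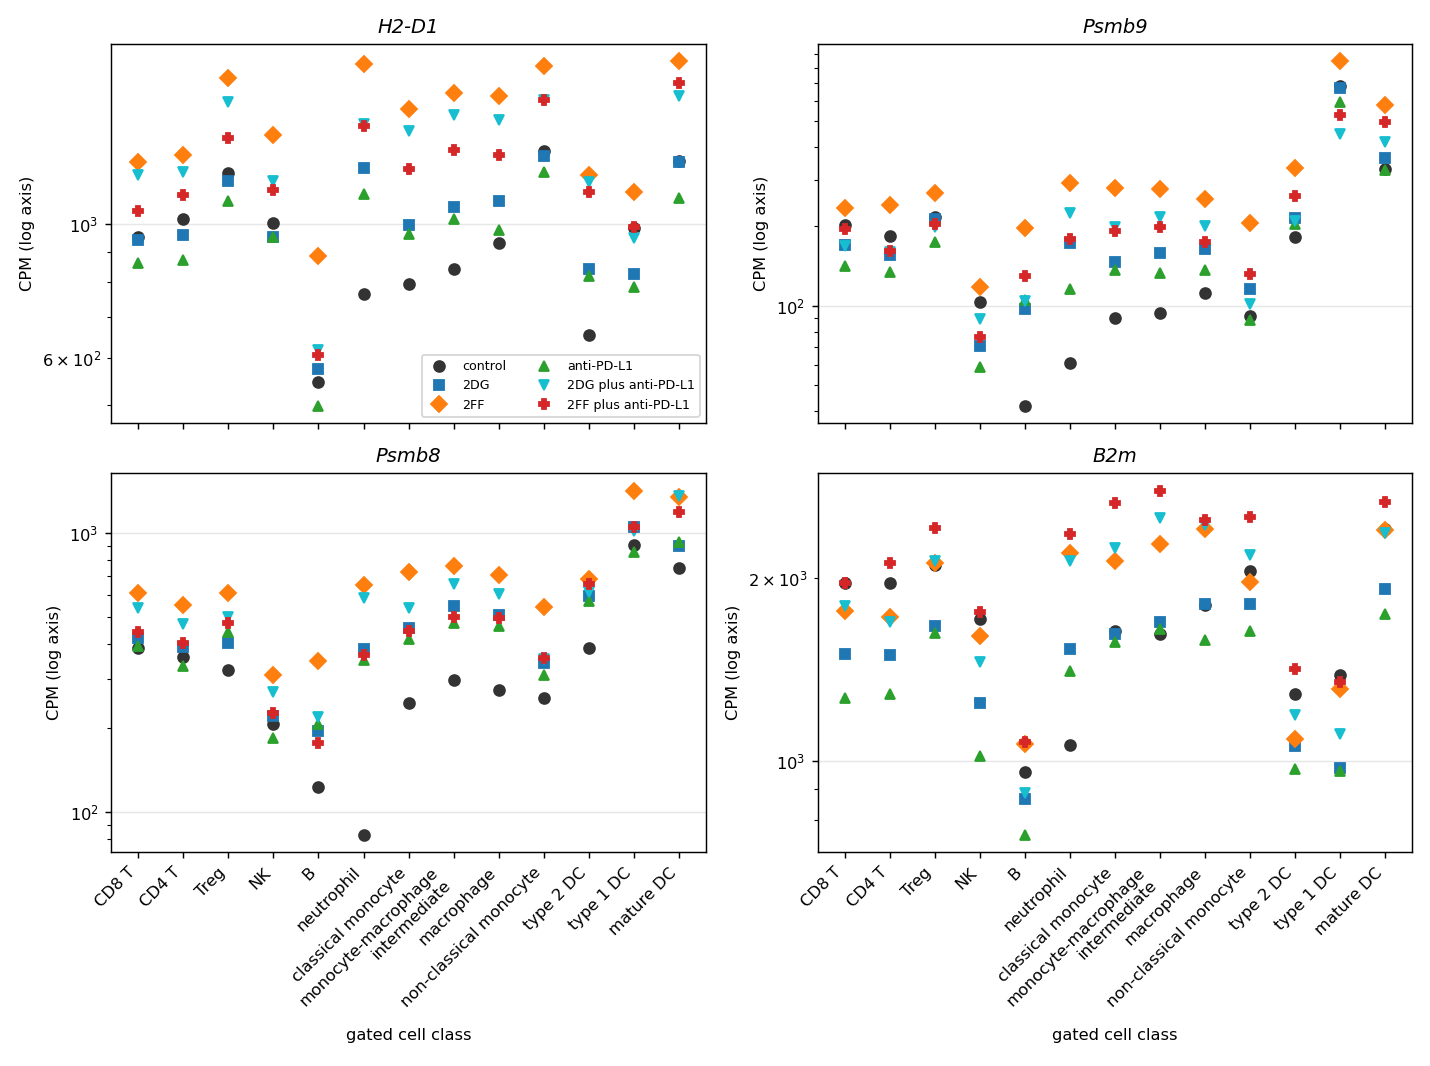
CPM on a log axis of H2-D1, Psmb9, Psmb8 and B2m in each gated class (horizontal axis), 1 point per library. The 2FF diamonds are at the top of all 13 classes for H2-D1 and Psmb9 and of 12 for Psmb8, and of none for B2m, for which the anti-PD-L1 triangles lie at or near the bottom.

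Genes outside the members had the same order, among them other proteasome genes. Of the 14 genes on the constitutive proteasome list, 11 were highest in 2FF in 10 or more classes, and Psmb1 and Psmb5 in all 13. Of the members 5 of 10 reached 10 or more classes, and of all genes 272 of 5901. The list median was 10.5 classes, beside 8.5 for the members and 1.0 for all genes. The activator and assembly list had a median of 7.0, with 2 of 4 genes tested in 10 or more classes. The interferon response genes had a median of 2.0 classes and the regulators 2.0, with none in 10 or more, and the loading list 1.5. The other genes highest in 2FF in every class included the ribosomal protein genes Rpl7 and Rps9 and the general genes Ppia and Pfn1, named after their values were seen. In CD8 T cells, where Psmb9 itself was highest in 2FF, its share of the pair with Psmb6 was 63.0% in 2FF (61.6% to 64.4%), 72.25% in control (65.3% to 78.5%, 191 UMIs), 63.3% in 2DG, 56.5% in anti-PD-L1, 61.4% in the 2DG combination and 66.2% in the 2FF combination. The Psmb9 share was highest in 2FF in macrophages (57.3%), neutrophils (78.9%), non-classical monocytes (66.3%) and mature DC (81.5%), and in control or the 2FF combination in the other classes. The part of a library-wide difference in these levels was not tested.

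The control library had its own order. H2-K1, Tapbp and Psmb10 were lowest in control in 12 of 13 classes, Tap1 and Psmb8 in 10, Nlrc5 in 8, Psmb9 in 6, H2-D1 in 5, and B2m and Tap2 in 2. Within a class, control was lowest for 20.4% (type 1 DC) to 51.9% (neutrophils) of all genes. The share of all genes lowest in control in as many classes was not computed, and the classes of 1 library are not independent. B2m was at 1268 CPM in CD8 T cells, 1291 in CD4 T cells, 1021 in NK cells and 1743 in mature DC of the anti-PD-L1 library, below the 1963, 1965, 1716 and 2411 CPM of control. The genes of 1 presentation pathway were thus not ordered alike over the libraries, with B2m and Tap2 apart from H2-K1, Tapbp and Psmb10.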

How the data were processed

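The values the authors deposited are unnormalized UMI counts for each gene in each called cell, from 6 libraries made with the 10x Chromium 3' v3.1 kit (per the labels). The matrix headers and the methods name Cell Ranger 7.0.0 and the submitters' processing notes name Cell Ranger 3.1.0, both with mm10. Whether introns were counted, and whether cells were sorted, is not given in the sources used here. The members, gates and gene lists were chosen with earlier results of these data known. Samples were grouped by the treatment in their labels.

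Cells with under 250 genes or over 5% mitochondrial UMIs were left out, the limits of the study's methods. A cell was gated by the number of class markers with a UMI, and a cell that met several gates was left out, except the intermediate class, which was added after the data were seen. No doublet caller was run. UMIs were summed per class and library, with a minimum of 20 cells for a level and 50 cells for a ratio, and genes with at least 50 UMIs in both libraries together were compared. The named genes were the members, the fixed lists (loading and trimming, constitutive proteasome, activators and assembly, regulators, interferon response, fibroblast, mesothelial, endothelial and lymph node stroma markers, dissociation and stress) and the 10 genes most like the member mean, of which 1 is not reported here. Contrasts of tumor cells against macrophages and CD8 T cells were planned and not run, since 1 library had 20 or more keratin-positive cells. Intervals are exact Poisson for levels, conditional binomial for ratios and Clopper-Pearson for shares, at 95%, and cover counting error only. The permutation p-values measure whether a class difference held across libraries, which are mice under different treatments. The spread between mice of the same treatment was not estimated. Alternatives were a mitochondrial limit of 10%, 1 more marker per gate, cells above the 96th percentile of UMIs left out, cells weighted equally, 1 CPM added in place of 5, centring, no UMI minimum, thinning to 500 UMIs, each library left out, and neutrophils high in S100a8 and S100a9. Coordinates are GRCm38 (GENCODE M21) and promoters RefSeq. Python 3.11.15, numpy 2.4.6, scipy 1.17.1, pandas 2.3.3 and matplotlib 3.10.9 were used. Ratio calls were checked on simulated Poisson counts, which hold no spread between mice. The permutation test was checked, before adjustment, on simulated independent normal differences. Neither check covers the spread between mice of the same treatment or the adjusted p-values.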

Additional observations from a re-analysis of the deposited data

Results flagged for a closer look

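In 4 myeloid classes the members lay in opposite directions when each combination was set against its glycosylation inhibitor alone. The classes are listed because all 10 members were above 0 in 1 comparison while their median was below 0 in the other. Set against 2DG alone, the 2DG combination had all 10 members above 0 in neutrophils, classical monocytes, macrophages and the monocyte-macrophage intermediate class, with median log2 ratios of 0.27, 0.25, 0.31 and 0.34. Set against 2FF alone, the 2FF combination had 2, 2, 1 and 2 members above 0 in the same classes, with medians of -0.32, -0.17, -0.26 and -0.18. The differences of these medians were 0.59 in neutrophils, 0.42 in classical monocytes, 0.57 in macrophages and 0.51 in the intermediate class. Few members reached the size called. In the same class order, 1, 2, 1 and 3 were called higher with 2DG (19.1%, 12.4%, 9.19% and 8.80% of all genes called in either direction). With 2FF, 3, 3, 2 and 2 were called lower (19.3%, 10.2%, 4.83% and 7.02%). No member was called the other way. In macrophages Psmb8 had log2 ratios of 0.25 with 2DG and -0.51 with 2FF, Psmb9 of 0.28 and -0.54, and B2m of 0.43 and 0.05. The medians over all genes tested lay between -0.09 and 0.00 in these comparisons. Each side is 1 mouse against 1 mouse, and the difference was not tested. The reference on the 2FF side is the library in which many proteasome genes were highest, whose part in the difference was not tested. Not every myeloid class had this split: non-classical monocytes had medians of -0.0020 and -0.05 with 5 and 2 members above 0, and type 2 DC of 0.18 and 0.15 with 7 and 6. Mature DC had medians of 0.22 and -0.06 with 8 and 4 members above 0, and CD8 T cells of 0.06 and -0.02 with 6 and 5. Other lymphocytes leaned the same way, with medians of 0.06 and -0.32 in B cells, 0.16 and -0.10 in NK cells and 0.08 and -0.13 in CD4 T cells. Treg had -0.01 and -0.25. In B cells 1 member was called lower with 2DG and 4 with 2FF (19.27% and 17.25% of all genes called). The median was higher on the 2DG side in every class compared, so the lean was not particular to myeloid cells. No group has the 4 samples needed to look for an outlying sample.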

How the results depend on the processing

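Treatment ratios were recomputed under the alternatives in CD8 T cells, macrophages and neutrophils only. No called treatment ratio of a single gene in these classes changed sign, and no contrast past the threshold did. Among those not called, 31 alternative values of treatment ratios and 8 of contrasts had the opposite sign, of ratios up to 0.27 and contrasts up to 0.34 in size. The member median of CD8 T cells for 2DG over control, near 0 throughout, went from 0.06 to -0.02 with equal weights. Of the class levels, 10 members had their top class named above, and leaving out 1 library kept 8 to 9 of these at the top. The changes were between mature and type 1 DC for Psmb8, non-classical monocytes and mature DC for H2-D1, and mature DC and macrophages for B2m. Equal weights moved Psmb10 to macrophages and Tap2 to mature DC, the latter also with cells above the 96th percentile left out. With 1 more marker in every gate the contrasts had 0 members past the threshold, in place of 1 higher and 4 lower for neutrophils, 4 higher and 2 lower for type 1 DC and 9 higher for mature DC, because the mature DC contrast kept 5 libraries, with a smallest possible p of 0.0625, which raised the adjusted p of all tests. Leaving out a library leaves 5, with the same limit, so no test can pass there. The mean ratios of the members past the threshold with all libraries kept their direction. Sign changes among the other members are part of the 8 given above. Centring took the neutrophil counts of called members from 10 to 7 with 2DG and from 9 to 6 with anti-PD-L1 over control. The shares of all genes called were then 49.5% and 50.7%. With 1 more marker both counts were 8, beside 49.5% and 43.2% of all genes. For the 2DG combination over anti-PD-L1 alone in CD8 T cells the 1 member became 0 with the 10% mitochondrial limit, with 1 more marker, with cells above the 96th percentile left out and with cells weighted equally, and 3 with centring. In the same cells, for 2FF over control the 2 became 1 with 1 more marker and with equal weights, and for 2DG over control the 1 became 0 with equal weights. Members lowest in control in CD8 T cells went from 5 to 3 with 1 more marker. The 2 members highest in 2FF in every class became 0 with equal weights, where H2-D1, Psmb8 and Psmb9 were each highest in 12 of 13. With cells above the 96th percentile left out the 2 were Psmb8 and Psmb9, and H2-D1 was highest in 12 of 13. H2-K1 was seen in 73.3% of macrophages thinned to 1000 UMIs and in 50.9% at 500. The class contrasts were paired within libraries. No paired or replicated comparison of treatments was possible because each group has 1 library and the labels carry no replicate numbers. Classes with few cells limit depth most, with 20 NK cells and 99 CD8 T cells in control.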

Other observations

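The genes outside the members whose pattern was most like the member mean were ranked by Pearson correlation over 78 points (13 classes in 6 libraries, which share cells' libraries and depth) among 6497 genes, as a description with no test. They included Psme2 (0.88), Edf1 (0.82), Ciao2b (0.82), Tapbpl (0.80), Itm2c (0.78), Psme1 (0.77), Ddt (0.77), H2afz (0.76) and Arf5 (0.74). Psme1 and Psme2 encode the proteasome activator PA28 and Tapbpl a relative of tapasin. Among the members, Psmb8 was closest to the mean (0.87) and Nlrc5 farthest (0.42). The closest pair was Psmb8 and Psmb9 (0.92), followed by H2-D1 and B2m (0.82), and the lowest value was that of Nlrc5 and Psmb10 (-0.02).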
